A study of Oryza sativa Japonica Group and Oryza sativa Indica Group with 16 samples.

Results

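The onset of mild drought was followed in flag leaves of the upland rice genotype IRAT109, by setting the first drought stage, D1, against the unstressed stage, D0. All IRAT109 arrays of these stages were taken, 2 at D1 and 2 at D0, which makes 4 of the 16 arrays of the series, and all 57381 probe sets of the Affymetrix rice array were tested on the log2 of the intensity plus 16. IRAT109 is a drought-resistant japonica genotype of upland rice, and ZS97, the other genotype, is a drought-sensitive indica genotype of paddy rice. Plants of both were grown in pipes, and flag leaf blades were sampled at booting without stress (D0) and at stages D1, D2 and D3 of a first drought cycle. At D1 the leaves were slightly rolled and held less water, relative to full turgor, than the unrolled leaves of D0. The methods of the study call the 2 arrays of a group independent biological replicates and say no more of how the plants were drawn. The p-values rest on the spread between arrays of the same group, pooled over all 8 groups of genotype and stage.

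When a leaf loses water, abscisic acid builds up, its receptors take hold of protein phosphatases of the PP2C group, and the SnRK2 kinases that these phosphatases held in check are set free. The kinases switch on bZIP transcription factors, which bind the promoters of genes for dehydrins and other late embryogenesis abundant (LEA) proteins, solutes and further regulators. Factors of the DREB group act beside this route without the hormone. The flag leaf is the uppermost leaf of the rice shoot and a main source of sugar for the grain, and at booting it still encloses the young panicle with its sheath.

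The 4 arrays were alike in their overall signal and in the spread of their replicates. With 2% of probe sets trimmed at either end, the mean intensity was 237 and 231 at D1, against 240 and 236 at D0. Over all probe sets the difference between replicates had an SD of 0.138 at D1 and 0.146 at D0 on the log2 scale, against 0.559 for the difference between the D1 and D0 means. The ratio of the 3' to the 5' control probe sets was 14.5 and 13.4 at D1 and 15.3 and 16 at D0 for actin, and 1.04 and 2.65 at D1 and 1.43 and 1.54 at D0 for GAPDH. Of 13 probe sets of defining leaf genes 2 averaged under 50, and the brightest, of RBCS, is given with its values further on. By contrast 7 of 8 probe sets of panicle and anther genes, 8 of 9 of dividing cells and 13 of 16 of seed storage genes averaged under 50. Of root genes 3 of 5 did, and of phloem and vascular genes 0 of 2. The summed intensity of the 5 root probe sets was 260.5 and 254.3 at D1, against 440.8 and 498.2 at D0. By the threshold given below, 1 root and 1 seed storage probe set were lower at D1.

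The signal of many probe sets differed between D1 and D0 leaves, in both directions. A probe set was called upregulated or downregulated at an adjusted p under 0.05 (limma, Benjamini-Hochberg over all probe sets) with a fold change over 2. At D1 1649 of the 57381 probe sets were upregulated (2.87%) and 1940 downregulated (3.38%), together 3589 (6.25%). In all of them both D1 arrays lay on one side of both D0 arrays, which over all probe sets was so for 29.2% above and 29.5% below. The median change was 1.40 among the upregulated and -1.51 among the downregulated probe sets, and -0.0028 over all. Upregulated probe sets had a median intensity of 448 at D1 and 121 at D0, and downregulated ones of 127 at D1 and 483 at D0. The very large rises outnumbered the very large falls, since 22 probe sets rose and 6 fell over 32-fold, whereas 376 rose and 552 fell over 4-fold. Of 3592 probe sets that differed over 2-fold, 3 missed the adjusted p, so the fold threshold set the counts. Over the 150 called probe sets named in the text, the standard error of the change was 0.0507 to 0.23 and the adjusted p at most 7.59e-04. With 1 gene symbol, 1058 genes had an upregulated and 1254 a downregulated probe set. Of 540 genes with several probe sets of which at least 1 was called, 125 had every probe set called the same way, 412 had some not called, and 3 were called in both directions. Among the genes named as called, 19 (APR1, APX2, CDKE-1, CESA4, CIPK3, CML27, CML5, GBSS-I, IAA1, KRP6, KSL7, LOX9, MADS15, MT2B, PHT1-1, PHT1;8, PRR73, SAT1 and YSL12) have 24 further probe sets that were not called, of which 15 averaged under 50 at both stages. In a sample of whole tissue, fewer cells of a type and less RNA per cell cannot be told apart.

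**Figure D1:**
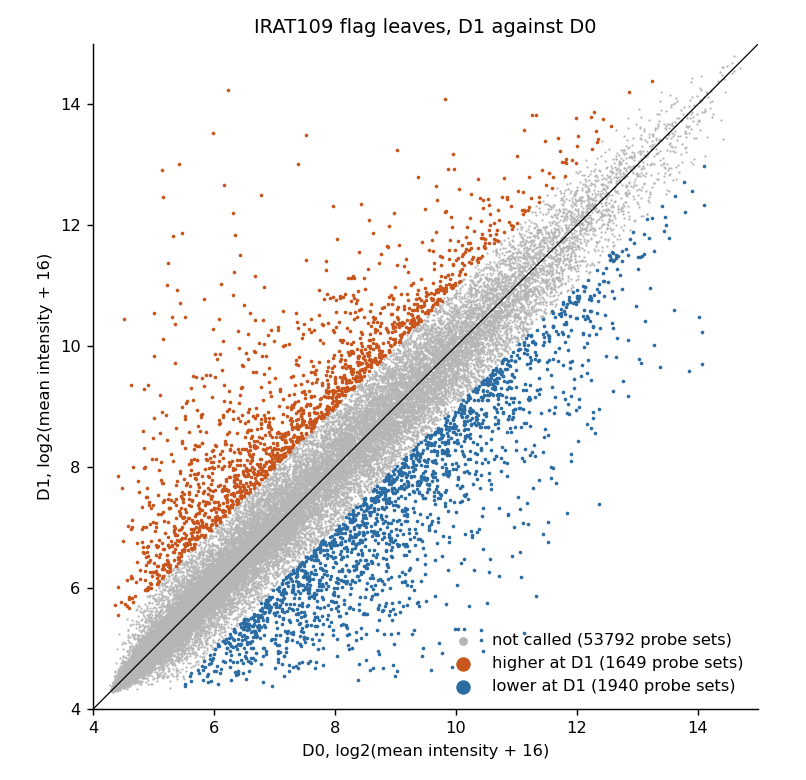
Mean intensity at D1 (vertical axis) against that at D0 (horizontal axis) in IRAT109 flag leaves, both as log2 of the mean intensity plus 16, for 57381 probe sets. The 1649 upregulated probe sets lie above and the 1940 downregulated ones below a band around the diagonal, and the points farthest from the diagonal lie above it, at a low D0 intensity.

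Among genes with a gene name, which hold 9 of the 50 largest rises, the largest belonged to dehydrins and other LEA proteins, hydrophilic proteins that protect membranes and enzymes as cells dry. Of 11 probe sets of such genes, 7 were upregulated and 0 downregulated, with a median change of 1.71. In the smaller set of 3181 probe sets with a gene name, 6.54% were upregulated and 8.43% downregulated, with a median of -0.03. The counts of every gene list below are to be read against these shares. RAB21 (LOC4350454), a dehydrin first found as a gene responsive to abscisic acid, had intensities of 19744 and 18795 at D1, against 54.2 and 63.6 at D0, a change of 8.01 ± 0.062 (± SE of the fit throughout; adjusted p = 7.48e-16). RAB16B (LOC4350453), its neighbour and close relative, had 5774 and 5498 at D1, against 19.8 and 19.2 at D0 (7.31 ± 0.0734, adjusted p = 9.02e-15). In LEA19, a gene for another LEA protein, the intensity was 3569.7 and 3628 at D1, against 24.9 and 23.1 at D0 (6.50 ± 0.0819). In RAB16B and LEA19 the unstressed signal lay near the floor of the array, while that of RAB21 lay above the D0 array medians of 37.4 and 37.6. In all 3 genes the replicates lay close together at both stages. The second probe set of RAB21 had 7371 and 8001 at D1, against 18.4 and 20.3 at D0 (218-fold, beside 258-fold for the first, both on the scale of the intensity plus 16). Dhn1 (LOC4330265), another dehydrin, had a clear signal without stress, with 3032 and 3061 at D1, against 713 and 824 at D0 (1.97 ± 0.0726). Its other 2 probe sets, at 19.1 and 20.1 at D1, against 26 and 38.7 at D0 and 9.7 and 8.1 at D1, against 9.6 and 9.6 at D0, were not called.

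The 4 genes of the RAB16 cluster stand side by side in the RefSeq gene order, and their D1 changes ranged from no call to the largest change of any named gene. From one end to the other, RAB16D was not called and RAB16C changed by 1.71, RAB16B by 7.31 and RAB21 by 8.01. RAB16C had 3111 and 3061 at D1, against 893 and 970.4 at D0, so its signal before stress was far from the floor. RAB16D had 81.6 and 72.8 at D1, against 73.9 and 80.5 at D0, which overlap, and was not called (adjusted p = 0.998). The same probe set rose by 3.32 at D1 in ZS97. The RAB16 genes are close copies, and how far their probe sets read each other's transcripts was not tested. RAB25 (LOC4326935), a dehydrin elsewhere in the genome, was dim on all 4 arrays at 37.1 and 32 at D1, against 14.8 and 12.5 at D0 and was not called.

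Other large rises came from genes of membranes, lipids, carbon metabolism, lignin and cell division. ENODL18 (LOC4341858), an early nodulin-like protein related to blue copper proteins, had intensities of 2118 and 2002 at D1, against 23.9 and 18.9 at D0 (5.80 ± 0.103). For PXG (LOC4336376), named for a peroxygenase, they were 1442 and 1329 at D1, against 45.2 and 57.6 at D0 (4.38 ± 0.078). PDHE1-A (LOC4340640), a subunit of pyruvate dehydrogenase, had 858 and 790.2 at D1, against 24.3 and 25.1 at D0 (4.37 ± 0.0686). In each of these genes both D1 arrays lay far above both D0 arrays. LTP-2 (LOC4331362), a lipid transfer protein, had 1312 and 1145 at D1, against 47.2 and 47.6 at D0 (4.29 ± 0.126). It was the largest of 3 upregulated probe sets among 10 for lipid transfer and cuticle genes, of which 0 were downregulated. LAC10 (LOC4332400), a laccase of the family that links lignin units in cell walls, had 601 and 640.3 at D1, against 32.6 and 33 at D0 (3.71 ± 0.0656). The rise of LAC10 was smaller than in ZS97 by -1.58 on the log2 scale.

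A few cell cycle genes rose in these grown leaves, and most of the list was not called. Of 56 probe sets for cyclins, their kinases and inhibitors, 6 were upregulated, 0 downregulated and 50 not called. Among all probe sets with a gene name 6.54% were upregulated and 8.43% downregulated. SMR1 (LOC4349289), a plant-specific inhibitor of cyclin-dependent kinases, had intensities of 933 and 803 at D1, against 41 and 58.5 at D0 (3.76 ± 0.128). The inhibitors KRP6 and KRP5 rose by 1.76 and 1.21, and KRP4, at 0.97, stayed just under the fold threshold. CDKE-1, a cyclin-dependent kinase, rose by 2.42 in 1 of its 2 probe sets, while the brighter one was not called (0.36). The D-type cyclins CYCD4-1 and CYCD5-3, which promote entry into division, rose as well, by 1.66 and 1.09, although CYCD5-3 stood at 0.98 and lost its call without D0 replicate 2. The 6 upregulated members thus are inhibitors, cyclins and a kinase. Of 67 probe sets for kinesins and DNA replication 1 was upregulated and 4 were downregulated, and 33 of them averaged under 50.

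**Figure D2:**
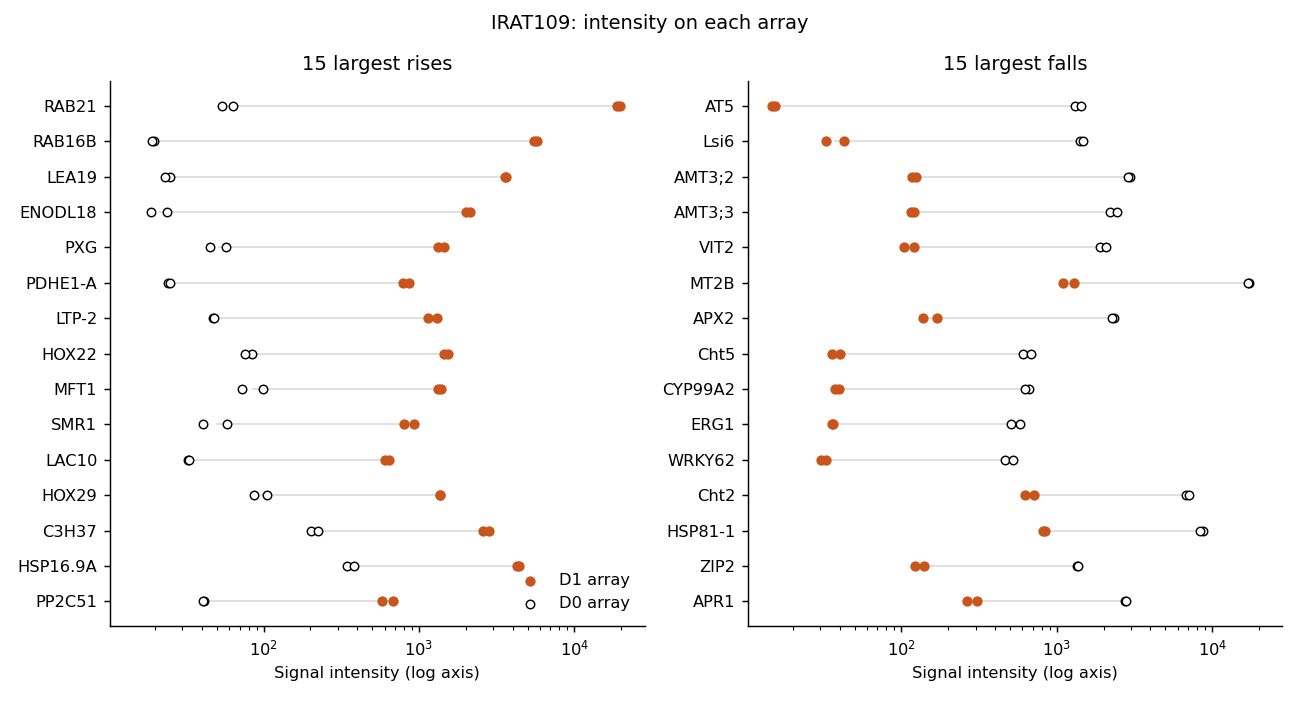
Signal intensity (log axis) on each IRAT109 array of the genes with the 15 largest rises (left) and the 15 largest falls (right) among called genes with a gene name; filled points are the 2 D1 arrays and open points the 2 D0 arrays. In each gene the D1 points stand apart from the D0 points, from RAB21 (19744 and 18795 at D1) at the top left to APR1 (308 and 266 at D1) at the bottom right.

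The abscisic acid pathway moved at several of its steps, with rises among its phosphatases and a fall in a gene of hormone synthesis. Of 22 probe sets for synthesis, breakdown and signaling of the hormone, 10 were upregulated and 3 downregulated, with a median of 0.84. Over all probe sets with a gene name the shares were 6.54% and 8.43%. PP2C51 (LOC4339671), a phosphatase of the group that restrains the signal, had intensities of 678 and 581 at D1, against 41.2 and 40.6 at D0 (3.50 ± 0.0805, adjusted p = 4.07e-12). Its relatives PP2C68 (1328 and 1328 at D1, against 139 and 159.8 at D0) and PP2C09 (3517 and 3365 at D1, against 948 and 928 at D0) rose by 3.03 and 1.86. The largest rises of the list lay in these phosphatases. The SnRK2 kinase SAPK4 rose by 1.60 ± 0.0685, while SAPK3 at 0.99, SAPK8 at 0.69 and SAPK6 at 0.30 were not called. The receptor PYL5 had 3879 and 3828 at D1, against 2469 and 2688 at D0 and was not called either (0.58). ABA8OX1, which breaks the hormone down, had 333 and 301 at D1, against 102 and 93.3 at D0 (1.55 ± 0.0731). ZEP (LOC4335984), zeaxanthin epoxidase, makes the carotenoid from which abscisic acid is cut. It had 448 and 431 at D1, against 2057 and 1843 at D0 and fell by 2.11 ± 0.0617 (adjusted p = 3.46e-11). In ZS97 the change of ZEP was -0.10 and not called, and the difference between the genotypes was called.

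Among transcription factors of the dehydration response, homeodomain factors rose most. HOX22 (LOC4336542) and HOX24 (LOC4330155) are related leucine zipper homeodomain factors known from drought-stressed rice. HOX22 had intensities of 1540.5 and 1437 at D1, against 84.4 and 75.5 at D0 (3.97 ± 0.0684), and HOX24 of 290.3 and 238 at D1, against 18.1 and 15.6 at D0 (3.09 ± 0.14). HOX29 (LOC4327348), another homeodomain factor, had 1368 and 1365 at D1, against 86.2 and 106 at D0 (3.63 ± 0.0897). Of 42 homeodomain probe sets 6 were upregulated and 1, HOX33 at -1.22, downregulated, and the median of 0.11 was near that of all probe sets. Of 45 probe sets for bZIP, DREB and NAC factors 7 were upregulated and 4 downregulated. DREB1A (LOC4347620), a factor of the route that does not need the hormone, had 343 and 278 at D1, against 34.1 and 39.3 at D0 (2.63 ± 0.136). bZIP23 (LOC4330838), a main regulator of responses to abscisic acid in rice, had 2047 and 1913 at D1, against 703 and 705 at D0 (1.47 ± 0.0525). The related TRAB1 was not called (0.77), nor were the stress factor SNAC2 (0.70) and NAC067 (0.45). C3H37 (LOC4339379), a zinc finger protein of the CCCH type, had 2583 and 2802 at D1, against 203 and 224 at D0 (3.56 ± 0.0725). It led 7 upregulated and 1 downregulated of 88 probe sets for CCCH and A20/AN1 zinc finger genes. The upregulated share was near the 6.54% of all probe sets with a gene name. C3H35 rose by 2.78, 2.37 and 2.15 in its 3 probe sets.

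Auxin genes rose more often than they fell. Of 82 probe sets 14 were upregulated and 2 downregulated, beside 6.54% and 8.43% of all probe sets with a gene name. Most of the rises named here were of Aux/IAA genes, short-lived repressors of auxin responses that are themselves switched on by auxin. IAA9 had intensities of 276 and 238 at D1, against 22.2 and 25.8 at D0 (2.77 ± 0.0888), and one of 2 genes annotated as IAA1 (LOC4323871) had 1741 and 1789 at D1, against 216 and 292 at D0 (2.74 ± 0.103). The other gene annotated as IAA1 (LOC4334069) was not called, at 0.28. IAA24 and IAA18 rose by 2.41 and 2.26, and ILL8, of a family that frees auxin from its amino acid conjugates, by 2.46. PIN5A, an auxin carrier, fell by 2.24 ± 0.084. IAA15 (0.95), IAA17 (0.76) and IAA3 (0.02) were not called.

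The other hormone lists held calls in both directions. Of 36 cytokinin probe sets 4 were upregulated and 5 downregulated. LOGL10, an enzyme of the step that frees active cytokinin, had intensities of 63.3 and 54.2 at D1, against 564 and 539 at D0 (-2.93 ± 0.106), and LOGL9 and LOGL5 changed by -1.38 and -1.34, both called, while LOGL1 rose by 1.19. Members of this enzyme family changed in opposite directions. Among 39 jasmonate probe sets 2 were upregulated and 5 downregulated. Both D1 arrays lay below both D0 arrays in 24, beside 29.5% of all probe sets. LOX8, a lipoxygenase, had 98.9 and 97.8 at D1, against 847 and 1015 at D0 (-3.04 ± 0.125), and LOX9 fell by 2.23. The repressors of jasmonate responses JAZ12 and JAZ7 changed by 1.54 and -1.18, both called. For gibberellin, CPS1, which makes the first committed intermediate, had 21 and 27.6 at D1, against 165 and 152 at D0 (-2.12 ± 0.0939), and GA20OX3 rose by 1.27 ± 0.0824. The ethylene list of 15 probe sets held 1 call, ACO1, a gene of the last step of ethylene synthesis, at 1.25 ± 0.141, which without D1 replicate 1 stood at 0.98 and lost its call.

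The largest fall of a named gene was that of AT5, followed by nutrient transporters. AT5 (LOC4338283), of the acyltransferase family, had intensities of 15.4 and 14.7 at D1, against 1311 and 1434 at D0 and fell by 5.48 ± 0.0632 (adjusted p = 2.48e-14), and at D1 it lay at or below the constant of 16, which limits the size of its fall. Lsi6 (LOC4340558), a channel that unloads silicon from the xylem of the leaf, had 42.4 and 32.8 at D1, against 1401 and 1475 at D0 and fell by 4.77 ± 0.0771 (adjusted p = 2.14e-13). Lsi1, a silicon transporter of roots, had 161 and 169 at D1, against 210.5 and 254 at D0 and was not called. AMT3;2 (LOC4334717) and AMT3;3 (LOC4329628) are ammonium transporters. AMT3;2 had 124 and 117 at D1, against 2969.8 and 2878 at D0 (fell by 4.43 ± 0.11), and AMT3;3 had 120.0 and 116 at D1, against 2200.5 and 2436 at D0 (fell by 4.12 ± 0.121). By the maker's naming, the probe sets of Lsi6 and AMT3;2 can also match related transcripts. The same holds for others named in the text, among them those of LEA19, Pi21, CIPK16, RBTI and PPDK2 and an APR1 probe set. Of 28 nitrogen probe sets 2 were upregulated and 9 downregulated. The cytosolic glutamine synthetases GLN1-1 and GLN1-2, which bind ammonium into glutamine, had 1358 and 1339.5 at D1, against 4699 and 4834 at D0 and 84.5 and 95.9 at D1, against 469 and 454 at D0, with changes of -1.81 and -2.17, both called. The plastid enzyme GLN2 stood at -0.94, just short of the threshold, and DUR3, a urea transporter, fell by 2.18 ± 0.104. The nitrate reductase NIA1 had 976 and 818 at D1, against 839 and 826 at D0, which overlap.

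Metal and potassium transport genes fell too, and no metal gene was called higher. Of 54 probe sets for iron, zinc and other metals 0 were upregulated and 13 downregulated, beside 6.54% and 8.43% of probe sets with a gene name. Both D1 arrays lay below both D0 arrays in 33, beside 29.5% of all probe sets. They lay above in 11, beside 29.2%, with changes of at most 0.87. VIT2 (LOC4346978), which stores iron in the vacuole, had intensities of 121 and 104 at D1, against 1882 and 2072 at D0 and fell by 3.96 ± 0.109. ZIP2 (LOC4333098), a zinc transporter, had 139 and 122 at D1, against 1354 and 1367 at D0 (fell by 3.23 ± 0.102). NAS3, a nicotianamine synthase whose product carries iron and zinc through the phloem, had 63.2 and 42.9 at D1, against 514 and 697 at D0 (fell by 3.17 ± 0.152). In all 3 genes both D1 arrays lay far below both D0 arrays. YSL12, of the family that moves such metal complexes, fell by 2.17, and COPT1, a copper transporter, by 2.10. Of 35 potassium and sodium probe sets 1 was upregulated and 9 were downregulated. HAK17 had 259.7 and 254 at D1, against 2231 and 2186 at D0 and fell by 3.03 ± 0.11, HAK1 and HAK13 changed by -2.61 and -2.16, both called, and the channel KCO2 rose by 2.14. MT2B (LOC4326409), a metallothionein that binds zinc and copper, had 1283 and 1089.9 at D1, against 17116 and 17078 at D0 and fell by 3.84 ± 0.092. Its 3 probe sets shown here changed by -3.84, -3.54 and -2.15. Of the 17 metallothionein probe sets 5 were downregulated and 0 upregulated, while MT2A and MT2C, at 0.08 and 0.43, were not called.

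Of 15 probe sets for sulfate reduction and cysteine synthesis 1 was upregulated and 4 were downregulated. APR1 (LOC4343348), the reductase that controls the flow of sulfate into cysteine, had intensities of 308 and 266 at D1, against 2761 and 2785 at D0 and fell by 3.21 ± 0.0746. A second probe set fell by 3.14 ± 0.136. SAT1, a serine acetyltransferase of cysteine synthesis, had 346 and 262 at D1, against 29.3 and 30.2 at D0 and rose by 2.79 ± 0.0978, while its other probe set, which was brighter at both stages, was not called. SAT4, of the same family, had 190.1 and 169.6 at D1, against 495 and 502 at D0 and fell by 1.40 ± 0.131, and SAT5 was not called (0.36). In the phosphate list of 33 probe sets 1 was upregulated, SPX1, a sensor of phosphate supply, at 1.56 ± 0.0516, and 2 were downregulated. PHT1;8, a phosphate transporter, had 39.1 and 23.3 at D1, against 334 and 336 at D0 (fell by 2.92 ± 0.135) in one probe set and 582 and 705 at D1, against 935 and 1322 at D0 in another, which was not called at -0.78. PHT1-1 fell by 1.61 ± 0.0779.

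Chaperones of the endoplasmic reticulum, which fold secreted and membrane proteins, were lower in mild drought. Of 32 probe sets 0 were upregulated and 8 downregulated, beside 6.54% and 8.43% of probe sets with a gene name, and the median was -0.53. Both D1 arrays lay below both D0 arrays in 24, beside 29.5% of all probe sets. The list was put together after some of its members had been seen to fall. BIP1, the main chaperone of that compartment, had intensities of 1931 and 2038 at D1, against 9497 and 9339 at D0 and fell by 2.24 ± 0.0641 (adjusted p = 2.84e-11). Its partners ERDJ3A and ERDJ3B had 40.5 and 35.7 at D1, against 434 and 447 at D0 and 497 and 528 at D1, against 3687 and 3698 at D0, with changes of -3.08 and -2.81, both called. PDIL2-3, a protein disulfide isomerase, had 286 and 270.0 at D1, against 2369 and 2393 at D0 and fell by 3.03 ± 0.0652, while PDIL2-2 at -0.64, PDIL1-1 at -0.93 and PDIL2-1 at -0.68 were not called, and a second PDIL2-1 probe set was called lower. CRO1, a calreticulin that binds unfolded glycoproteins, fell by 1.57 ± 0.06. bZIP50, the factor that switches these chaperones on when proteins misfold, had 442 and 374 at D1, against 1175 and 1444 at D0 and fell by 1.64 ± 0.11.

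Heat shock genes were called in both directions. Of 66 probe sets for heat shock proteins and factors 11 were upregulated and 15 downregulated, and the median of 0.02 was near that of all probe sets. Over all probe sets with a gene name the shares called were 6.54% and 8.43%. The small heat shock gene HSP16.9A (LOC4325697), which keeps unfolded proteins from clumping, had intensities of 4405 and 4256 at D1, against 343 and 381 at D0 (3.53 ± 0.0852). HSP16.9B had 947 and 932 at D1, against 87.8 and 84.3 at D0 (3.23 ± 0.108). HSP81-1 (LOC4345951), a chaperone of the HSP90 type, had 841 and 811 at D1, against 8664 and 8311 at D0 and fell by 3.34 ± 0.062. HSP81-2 and HSP81-3 stood at 0.42 and 0.42 and were not called, and the brightest HSP81-3 probe set stood at 0.02, with overlapping arrays. The HSP90 genes are close relatives, and only HSP81-1 among these 3 passed the threshold. Of the heat shock factors, HSFA6B rose by 2.63 ± 0.0664, while HSFB2C and HSFB2A changed by -2.73 and -2.50, both called.

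Photosynthesis genes lay a little lower, mostly within the 2-fold threshold. Of 27 probe sets 0 were upregulated and 2 downregulated, with a median of -0.34. Both D1 arrays lay below both D0 arrays in 18, beside 29.5% of all probe sets. The downregulated genes encode chlorophyll-binding proteins of the antenna: RCABP89 had intensities of 2964 and 2605 at D1, against 6323 and 6447 at D0 (fell by 1.20 ± 0.0769), and RCABP69 had 4546 and 4348 at D1, against 9909 and 9555 at D0 (fell by 1.13 ± 0.0548). RBCS (LOC4351966), the small subunit of Rubisco, had 13865 and 13539 at D1, against 21803 and 21199 at D0 in its brightest probe set and was not called at -0.65, although both D1 arrays lay below both D0 arrays. The summed intensity of the 13 leaf marker probe sets, which include these genes, was 57715 and 57176 at D1, against 87588 and 86010 at D0. In all 13 both D1 arrays lay below both D0 arrays, beside 29.5% of all probe sets. The part of these 13 in the other falls was not tested. Chlorophyll synthesis held 1 call of 17, CHLI at -1.12. Chlorophyll breakdown genes, among them SGR at 0.89 and RCCR1 at 0.72, were not called in any of 6 probe sets, with a median of 0.79, while 5 of the 6 were upregulated at D1 in ZS97.

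The circadian clock list was lower at D1, with calls in PRR genes, repressors that take turns through the day. Of 10 probe sets 0 were upregulated and 3 downregulated, and the median was -0.88. Both D1 arrays lay below both D0 arrays in 9, beside 29.5% of all probe sets. PRR95 had intensities of 1705 and 1658 at D1, against 4187 and 3831 at D0 (fell by 1.24 ± 0.0587). PRR37 fell by 1.25 and PRR73 by 1.05, and without D0 replicate 1 both fell short of the threshold, with PRR73 at -0.90. A second, brighter PRR37 probe set was not called (-0.84), nor was the second one of PRR73. GI at -0.23, PCL1 at -0.41 and PRR1 at -0.10 were not called. In ZS97 the list held 0 calls and a median of -0.07. The methods say that both genotypes were harvested together, and the hour and day of each stage are not given in the sources used here, so whether the time of sampling moved with the stage was not tested.

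Enzymes that remove reactive oxygen were called more often downward than upward, and superoxide dismutases in both directions. Of 28 probe sets for catalases, peroxidases and superoxide dismutases 2 were upregulated and 5 downregulated. Over all probe sets with a gene name the shares were 6.54% and 8.43%. SodCc2 and sodCp, copper and zinc superoxide dismutases of cytosol and plastid, had intensities of 12118 and 11923 at D1, against 5212 and 4915 at D0 and 9700.2 and 9950.0 at D1, against 4784 and 4874 at D0, and rose by 1.25 and 1.02. SodCc1, a near relative, had 1942 and 1868 at D1, against 6317 and 5859 at D0 and fell by 1.67. APX2 (LOC4344397), an ascorbate peroxidase, had 169 and 138 at D1, against 2335 and 2262 at D0 in its most changed probe set (fell by 3.78 ± 0.0825). Other probe sets of the gene changed by -1.12 and -0.59, the second of them not called, so the size of the fall differed between probe sets. Catalase CatA changed by -1.19 in a called probe set and by -0.68 and -0.55 in 2 others, which were not called. Among 47 glutaredoxin and thioredoxin probe sets 3 were upregulated and 3 downregulated, no more often than among all probe sets with a gene name. GRXC10 (2933 and 3068 at D1, against 317 and 328 at D0) rose most, by 3.16 ± 0.0769.

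Sugar transport and starch genes were called no more often than all probe sets with a gene name, 6.54% upregulated and 8.43% downregulated. Of 81 probe sets 5 were upregulated and 4 downregulated. SWEET15, a sugar exporter, had intensities of 243 and 188 at D1, against 4.5 and 5.9 at D0 (3.44 ± 0.112), and since both D0 arrays were under 16, the added constant limits the change. SS1, a starch synthase, had 1119 and 1095 at D1, against 146 and 173 at D0 (2.68 ± 0.0762). MST3, a sugar importer of the plasma membrane, had 925 and 859.8 at D1, against 6370.1 and 6426 at D0 and fell by 2.82 ± 0.0571. Granule-bound starch synthase GBSS-I was at 11.7 and 13.4 at D1, against 80.3 and 86.5 at D0 (fell by 1.80 ± 0.0786), with both D1 arrays under 16. With a constant of 64 it stood at -0.945 and lost its call, and the other 5 GBSS-I probe sets were not called. Sucrose synthase RSS1 was not called (-0.96). Malate synthase (MS), an enzyme of the glyoxylate cycle, rose by 2.07 ± 0.092. The pyruvate phosphate dikinases PPDK2 and PPDK1, which were only counted in the same list, changed by 2.09 and -1.74, both called.

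Calls among water channel and solute genes stood near the shares of all probe sets with a gene name, 6.54% upregulated and 8.43% downregulated. Of 26 aquaporin probe sets 1 was upregulated and 3 were downregulated. PIP2;6, a water channel of the plasma membrane, had intensities of 4656 and 5309 at D1, against 1384 and 1364 at D0 (1.84 ± 0.0857), and PIP1;3 had 204 and 211 at D1, against 1006 and 1056 at D0 (fell by 2.23 ± 0.0903). TIP1;1, of the vacuole membrane, changed by -1.74 and -1.25 in its 2 probe sets, both called. PIP1-2 and PIP2-7 were not called, at 0.21 and -0.25. Of 25 probe sets for proline, sugar and polyamine solutes 1 was upregulated and 3 downregulated. P5CS1, the first enzyme of proline synthesis, had 1441 and 1513 at D1, against 758 and 702 at D0 and a change of 1.0 ± 0.0581, on the threshold itself, and without D0 replicate 2 it stood at 0.95 and lost its call. PROT, a proline transporter, fell by 1.32, and TPP1, an enzyme of trehalose synthesis, by 1.48.

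Defence genes fell more often than they rose. Of 31 probe sets for chitinases and other defence proteins 2 were upregulated and 8 downregulated. Over all probe sets with a gene name the shares were 6.54% and 8.43%. Cht5, a chitinase, had intensities of 40 and 35.9 at D1, against 601 and 683 at D0 (fell by 3.61 ± 0.133), and Cht2, another, had 714 and 627 at D1, against 6822 and 7063 at D0 (fell by 3.34 ± 0.0954). Cht4 went the other way, with 879.8 and 1025 at D1, against 94.1 and 76.7 at D0 (3.26 ± 0.215), as did RBTI, a proteinase inhibitor, with 915 and 892 at D1, against 97 and 102 at D0 (2.99 ± 0.0657). PBZ1, a defence protein named for its response to probenazole, had 11142 and 10965 at D1, against 22328 and 21660.4 at D0 and stood at -0.99, just short of a call. Of 7 WRKY probe sets 3 were downregulated and 0 upregulated. WRKY62 and WRKY76 are repressors of defence genes in rice. WRKY62 had 32.5 and 30.2 at D1, against 460.3 and 523 at D0 (fell by 3.42 ± 0.0797), WRKY76 had 67.7 and 75.6 at D1, against 808 and 766 at D0 (fell by 3.20 ± 0.142), and WRKY24 fell by 2.0 ± 0.0855. ERG1 (LOC4327497), named for its response to fungal elicitor, had 35.5 and 36.1 at D1, against 579 and 508 at D0 (fell by 3.43 ± 0.103).

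In the synthesis of diterpenoid phytoalexins, antimicrobial compounds of rice, genes of the momilactone cluster fell and most of another cluster were not called. Of 17 probe sets 6 were downregulated and 0 upregulated. CPS4 and KSL4 make the momilactone skeleton, and CYP99A2 and CYP99A3 oxidize it. In the RefSeq gene order CPS4 stands next to CYP99A3, and KSL4 next to CYP99A2. CYP99A2 had intensities of 37.3 and 39.8 at D1, against 662 and 628 at D0 (fell by 3.60 ± 0.16), and CPS4 had 11.2 and 9.8 at D1, against 228 and 185 at D0 (fell by 3.06 ± 0.0884). KSL4 was at 8.5 and 8.4 at D1, against 61.4 and 69.2 at D0 (fell by 1.73 ± 0.0627), so both it and CPS4 were under 16 at D1, and with a constant of 64 KSL4 stood at -0.835 and lost its call. CYP99A3 had 330.5 and 312 at D1, against 354 and 361 at D0 and was not called (-0.15). Of the phytocassane cluster, CYP71Z7 fell by 1.51 and KSL7 by 1.0 in 1 of its 2 probe sets, which without D1 replicate 1 stood at -0.89 and lost its call, while CPS2 at 0.02 and CYP71Z6 at 0.03 were not called. Both of these had overlapping arrays in IRAT109, while in ZS97 they changed by -3.18 and -3.37 at D1, both called.

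Flowering and inflorescence genes changed in both directions while the panicle was still in the boot. Of 36 probe sets 5 were upregulated and 6 downregulated, beside 6.54% and 8.43% of all probe sets with a gene name. MFT1 (LOC4341107), of the family of the flowering signal and known from seeds, had intensities of 1393 and 1328 at D1, against 72.8 and 98.8 at D0 (3.77 ± 0.106). Hd3a (LOC4340185), the flowering signal made in leaves, had 20.6 and 18.3 at D1, against 269 and 224 at D0 (fell by 2.88 ± 0.109). DTH8, a regulator of heading date, had 36.7 and 37.8 at D1, against 341 and 298 at D0 (fell by 2.65 ± 0.0759). MADS15, which acts after the signal has reached the shoot tip, rose by 2.45, 2.39 and 1.95 in 3 probe sets, and MADS14 was not called (0.15). The summed intensity of the 8 panicle and anther marker probe sets was 161 and 162 at D1, against 121 and 136 at D0, and 0 of them were called. Of 8 BURP probe sets 2 were upregulated and 1 downregulated. BURP3, a drought-responsive gene that the study names, had 4865 and 4566 at D1, against 498 and 482 at D0 (3.23 ± 0.066), and BURP17 had 26.8 and 24.5 at D1, against 297 and 221 at D0 (fell by 2.71 ± 0.107).

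**Figure D3:**
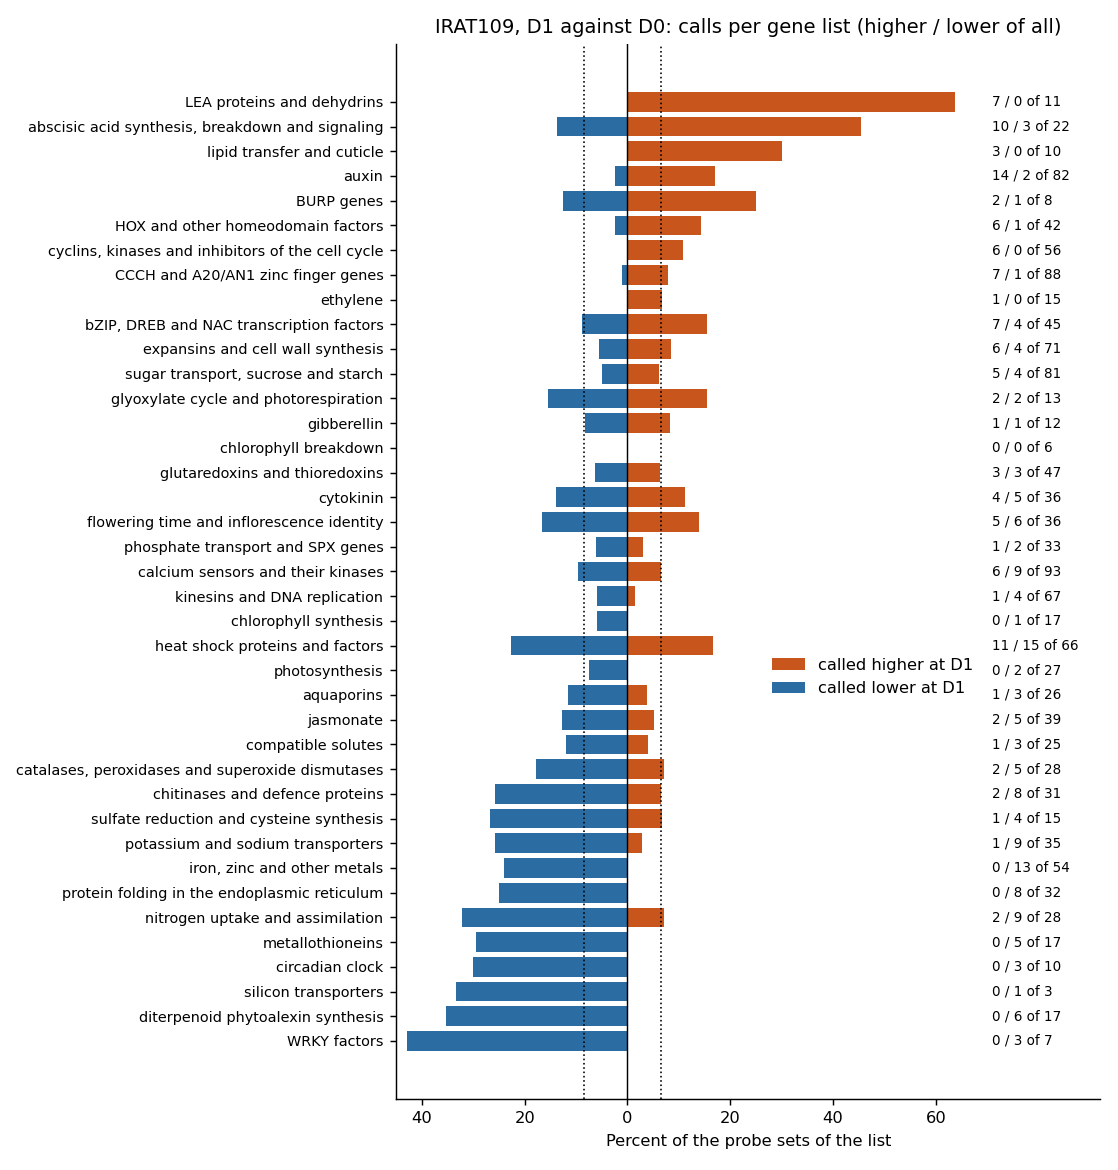
Percent of the probe sets of each of 39 gene lists called higher (right of 0) or lower (left of 0) at D1 in IRAT109, with the counts of higher and lower calls of all probe sets at the right edge. Dotted lines mark 6.54% higher and 8.43% lower, the shares among the 3181 probe sets with a gene name; LEA proteins and dehydrins (7 of 11 higher) are at the top and WRKY factors (3 of 7 lower) at the bottom.

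The levels at later stages differed from gene to gene among those that changed at D1. These are levels on the D2 and D3 arrays set beside those of D0 and D1, with no test, since every later stage is set against the same D0 arrays. RAB21, LEA19, HOX22 and PP2C51 stood higher still at D3. RAB21 averaged 58.9 at D0, 19269.7 at D1, 24183 at D2 and 33199 at D3, and HOX22 averaged 80, 1489, 2183 and 4585 at the 4 stages. LEA19 averaged 24, 3599, 5149.5 and 9560.0, and PP2C51 40.9, 629.5, 770.0 and 1694. In other genes D1 held the highest of the 4 levels. LAC10 averaged 32.8 at D0, 621 at D1, 276 at D2 and 333 at D3, and the D2 arrays (282 and 271) and D3 arrays (329 and 337) lay below both D1 arrays. DREB1A averaged 36.7, 310.5, 248 and 170.2. Of the genes that fell at D1, those given here were still far below their D0 level at D3. Lsi6 averaged 1438, 37.6, 32.1 and 27.2 at the 4 stages, AMT3;2 2924, 120.2, 92.8 and 116, and HSP81-1 8487, 826, 855 and 1178. BIP1 had 1739 and 1748 at D2 and 2019.5 and 2051 at D3, beside 1931 and 2038 at D1. ZEP averaged 1949.8, 439.6, 348 and 601, so its level at D3 was above that at D1 and under that at D0.

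**Figure D4:**
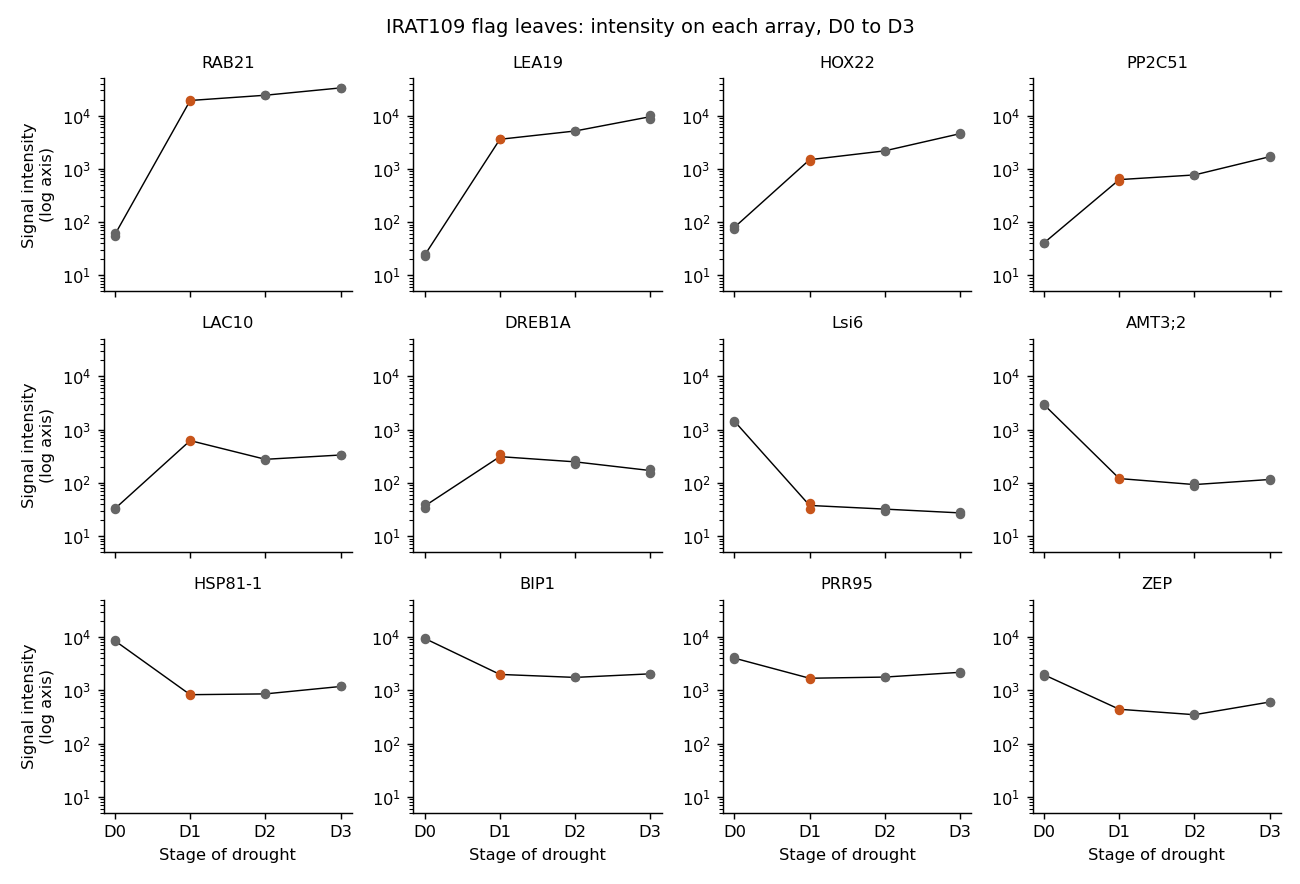
Signal intensity (log axis) on each IRAT109 array for 12 genes at D0, D1, D2 and D3; points are arrays, coloured at D1, and lines join the means of the 2 arrays. RAB21, LEA19, HOX22 and PP2C51 were highest at D3, LAC10 and DREB1A at D1, and the other 6 genes were highest at D0.

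Over 50% of the probe sets called in IRAT109 were called the same way in the paddy genotype, which has its own D0 and D1 arrays. In ZS97 1419 probe sets were upregulated at D1 (2.47%) and 1705 downregulated (2.97%), together 3124 (5.44%). The shared upregulated probe sets numbered 876, or 53.1% of the IRAT109 list and 61.7% of the ZS97 list. The shared downregulated ones numbered 1076, or 55.5% of the IRAT109 list and 63.1% of the ZS97 list. Only 7 upregulated and 13 downregulated probe sets of IRAT109 were called in the opposite direction in ZS97. The difference between the changes, IRAT109 minus ZS97, was tested as an interaction and called at an adjusted p under 0.05 and a size over 1. In all 1635 probe sets (2.85%) passed, with 724 (1.26%) higher and 911 (1.59%) lower in IRAT109.

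Genes with the most different D1 changes included chitinases, WRKY factors and a blast resistance gene. BURP16 (LOC4348595) went in opposite directions, with 204 and 176 at D1, against 56.8 and 54.6 at D0 in IRAT109 and 87.5 and 103 at D1, against 792 and 628 at D0 in ZS97 (difference 4.22 ± 0.146, adjusted p = 3.29e-09). Pi21 (LOC4335725), a gene whose working form makes rice more susceptible to blast, changed by -1.18 in IRAT109 and -5.02 in ZS97, called in both (difference 3.84 ± 0.184). HSP16.9B rose by 3.23 in IRAT109, against a change of 0.66 in ZS97 that was not called (difference 2.56 ± 0.153). For WRKY76 the ZS97 arrays read 486 and 322 at D1, against 189 and 200.3 at D0, a change of 0.97 that was not called (difference -4.17 ± 0.201). WRKY62 in ZS97 read 72.9 and 65.1 at D1, against 57.9 and 55.8 at D0 (difference -3.64 ± 0.113), and Cht5 27.5 and 34.3 at D1, against 56 and 47.9 at D0 (difference -3.07 ± 0.189). Other differences rest on probe sets that were dim on all 4 ZS97 arrays. They read 14.6 and 15.8 at D1, against 12.5 and 9.8 at D0 in ZS97 for Cht4, 8.1 and 8.7 at D1, against 8.1 and 8.6 at D0 for GER4, a germin-like protein, and 10.6 and 11.6 at D1, against 9.7 and 12.2 at D0 for SAT1. Those of DTH8 averaged 18.1 at D1 and 15.4 at D0, and those of PHT1;8 10.2 at D1 and 13.4 at D0. HSP16.9B read 37.5 and 24.8 at D1, against 13.9 and 13.1 at D0 in ZS97, and the probe sets of ACO1, BURP17, CPS4, CYCD4-1 and GBSS-I were also under 50 on all 4 ZS97 arrays. In these 11 genes a low transcript level and probes that do not match the ZS97 transcript cannot be told apart. WRKY62 and Cht5 also read low in ZS97, at most 72.9 and 56, so the same limit holds for them. One Cht2 probe set, low in ZS97 as well, read 52.1 and 48.4 at D1, against 13.4 and 18.2 at D0 there (difference -3.84 ± 0.221). Another read 1872 and 1701 at D1, against 13392 and 15258 at D0 in ZS97 and fell in both genotypes, so the difference for Cht2 does not hold for each of its probe sets. A further Cht2 probe set changed by -2.27 in IRAT109, and its ZS97 values are not given here.

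**Figure D5:**
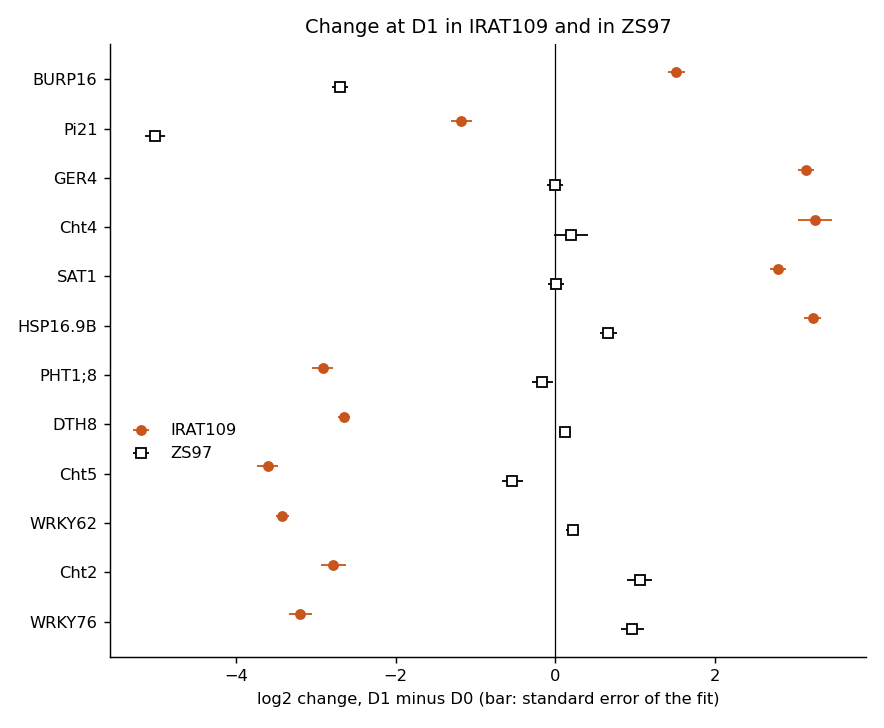
Change at D1 against D0 on the log2 scale (horizontal axis) in IRAT109 (filled points) and ZS97 (open squares), with the standard error of the fit as bars, for the 6 genes with the largest differences in each direction among those called in IRAT109. The difference runs from 4.22 for BURP16 at the top to -4.17 for WRKY76 at the bottom.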

How the data were processed

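Flag leaf RNA was measured on 16 Affymetrix rice arrays, 2 for each of the 8 groups of 2 genotypes and 4 stages, grouped by the labels of the samples. The values used are linear signal intensity values, deposited by the authors with 1 value for each probe set on each array. How the probes were summarized was not settled, since the labels name MAS5, without a version, and the methods name the robust multiarray average. Raw scans were not used here. On an array 28.7% to 29.5% of the values of the D1 and D0 samples of IRAT109 lay below 16.

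A constant of 16 was added to each intensity and the log2 taken, with no rescaling of arrays and no filter. All 57381 probe sets, of which 123 are controls, were fitted in limma 3.58.1 (R 4.3.3) with 1 mean per group over all 16 arrays, which leaves 8 residual and 4.28 prior degrees of freedom. Residuals had a median SD of 0.0827 (log2). The methods of the study name rank products, which were run as an alternative, since they give no standard error or interaction. 0 of the 123 controls were called. The number of arrays limits the precision. The fit found all 50 probe sets changed by 1.25, and all 50 by 1.5, by 2 and by 3 on the log2 scale, in simulated data for D1 against D0 in IRAT109 over 57381 probe sets, with 0 false calls. The simulated noise had the fitted spread, and changes above the threshold were put only into probe sets with a D0 level over 50. The simulation therefore checks the calculation and cannot show how accurate the calls are in the real data.

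In the platform annotation 22436 probe sets have 1 gene symbol, 95 have several and 34850 have none, and 3181 carry a gene name. All 22436 were found in the RefSeq gene table (assembly ASM3414082v1), which was used for symbols and for which genes are neighbours. The rule for named genes takes the 15 called genes with a name that rose most and the 15 that fell most, up to 6 called and 4 uncalled members of each gene list, 2 genes the study names, and the 6 largest differences between the genotypes in each direction. The members of the lists and the lists themselves were chosen with earlier results of these data known, so they are described by counts and medians only. Alternatives were other constants, centring, quantile normalization, leaving out dim probe sets, an intensity trend, a block for the replicate number, fewer arrays in the model, other thresholds, rank products, 1 probe set per gene and leaving out each array. A search of promoters for motifs was not run, and sequences were not used here.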

Additional observations from a re-analysis of the deposited data

Results flagged for a closer look

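The difference between the D1 change in IRAT109 and the D1 change in ZS97 was tested as an interaction (limma, Benjamini-Hochberg over all probe sets), and it passed the threshold for 57 of the probe sets given above. Each value below is the IRAT109 change minus the ZS97 change on the log2 scale, with both changes in parentheses, and a gene listed more than once has several probe sets there. Further probe sets of these genes, among them 2 more of MT2C and 1 more of HAK17 that passed, are not listed. The background is 1.26% of all probe sets higher and 1.59% lower. No cause of these differences was tested. Groups of 2 arrays are too small for a search for outlying arrays within a group.

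In 23 probe sets the difference was positive. The differences were BURP16 4.22 (1.52 in IRAT109 and -2.70 in ZS97), Pi21 3.84 (-1.18 in IRAT109 and -5.02 in ZS97), CYP71Z6 3.41 (0.03 in IRAT109 and -3.37 in ZS97) and CPS2 3.20 (0.02 in IRAT109 and -3.18 in ZS97). Next in size were GER4 3.14 (3.15 in IRAT109 and 0.0 in ZS97), Cht4 3.05 (3.26 in IRAT109 and 0.20 in ZS97), SAT1 2.78 (2.79 in IRAT109 and 0.01 in ZS97) and HSP16.9B 2.56 (3.23 in IRAT109 and 0.66 in ZS97). They were followed by CYP99A3 2.30 (-0.15 in IRAT109 and -2.45 in ZS97), C3H37 2.18 (3.56 in IRAT109 and 1.39 in ZS97), IAA9 2.10 (2.77 in IRAT109 and 0.67 in ZS97) and LOX9 1.70 (-2.23 in IRAT109 and -3.92 in ZS97). Further differences were CYCD4-1 1.64 (1.66 in IRAT109 and 0.02 in ZS97), ACO1 1.42 (1.25 in IRAT109 and -0.17 in ZS97), IAA18 1.40 (2.26 in IRAT109 and 0.86 in ZS97) and C3H35 1.27 (2.37 in IRAT109 and 1.09 in ZS97). Smaller ones were C3H35 1.22 (2.78 in IRAT109 and 1.56 in ZS97), CYP71Z7 1.20 (-1.51 in IRAT109 and -2.71 in ZS97), CIPK6 1.20 (2.56 in IRAT109 and 1.36 in ZS97) and MFT1 1.18 (3.77 in IRAT109 and 2.59 in ZS97). The smallest were C3H35 1.16 (2.15 in IRAT109 and 0.99 in ZS97), MADS15 1.11 (2.45 in IRAT109 and 1.34 in ZS97) and RBTI 1.01 (2.99 in IRAT109 and 1.98 in ZS97).

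In the other 34 it was negative. The differences were WRKY76 -4.17 (-3.20 in IRAT109 and 0.97 in ZS97), Cht2 -3.84 (-2.78 in IRAT109 and 1.06 in ZS97), WRKY62 -3.64 (-3.42 in IRAT109 and 0.22 in ZS97) and RAB16D -3.32 (no called change in IRAT109 and 3.32 in ZS97). Next in size were Cht5 -3.07 (-3.61 in IRAT109 and -0.54 in ZS97), DTH8 -2.77 (-2.65 in IRAT109 and 0.12 in ZS97), PHT1;8 -2.76 (-2.92 in IRAT109 and -0.16 in ZS97) and BURP17 -2.52 (-2.71 in IRAT109 and -0.19 in ZS97). They were followed by MS -2.40 (2.07 in IRAT109 and 4.46 in ZS97), APX2 -2.29 (-3.78 in IRAT109 and -1.49 in ZS97), APR1 -2.22 (-3.14 in IRAT109 and -0.91 in ZS97) and APR1 -2.20 (-3.21 in IRAT109 and -1.0 in ZS97). Further differences were SGR -2.04 (0.89 in IRAT109 and 2.93 in ZS97), ZEP -2.01 (-2.11 in IRAT109 and -0.10 in ZS97), MT2C -1.95 (0.43 in IRAT109 and 2.38 in ZS97) and AMT3;3 -1.92 (-4.12 in IRAT109 and -2.21 in ZS97). Then came AMT3;2 -1.90 (-4.43 in IRAT109 and -2.53 in ZS97), CPS4 -1.77 (-3.06 in IRAT109 and -1.29 in ZS97), HAK17 -1.63 (-3.03 in IRAT109 and -1.39 in ZS97) and AT5 -1.61 (-5.48 in IRAT109 and -3.87 in ZS97). Below these were ERDJ3A -1.58 (-3.08 in IRAT109 and -1.50 in ZS97), LAC10 -1.58 (3.71 in IRAT109 and 5.28 in ZS97), PRR95 -1.56 (-1.24 in IRAT109 and 0.32 in ZS97) and NAS3 -1.51 (-3.17 in IRAT109 and -1.66 in ZS97). Smaller ones were PRR37 -1.47 (-1.25 in IRAT109 and 0.21 in ZS97), HSFB2C -1.44 (-2.73 in IRAT109 and -1.29 in ZS97), CML27 -1.30 (-1.90 in IRAT109 and -0.60 in ZS97) and RCABP89 -1.30 (-1.20 in IRAT109 and 0.10 in ZS97). Still smaller were GBSS-I -1.24 (-1.80 in IRAT109 and -0.56 in ZS97), KCO2 -1.14 (2.14 in IRAT109 and 3.28 in ZS97), KSL7 -1.12 (-1.0 in IRAT109 and 0.12 in ZS97) and LOGL9 -1.11 (-1.38 in IRAT109 and -0.26 in ZS97). The last was GLN1-1 -1.07 (-1.81 in IRAT109 and -0.74 in ZS97) and PPDK1 -1.04 (-1.74 in IRAT109 and -0.70 in ZS97). ACO1, BURP17, CPS4, CYCD4-1, Cht4, DTH8, GBSS-I, GER4, HSP16.9B, PHT1;8 and SAT1 were under 50 on all 4 ZS97 arrays, where a low transcript level and probes that do not match the ZS97 transcript cannot be told apart. The probe sets of WRKY62, Cht5 and Cht2 listed here also read low in ZS97, so the same limit holds for them.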

How the results depend on the processing

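The counts of called probe sets moved by over 1.5 times only with another fold threshold, 1 probe set per gene or, for the interaction, a larger constant. With no fold threshold 9195 probe sets were higher and 9011 lower at D1, and with a fold over 4 376 were higher and 552 lower, so that the order of the directions turns with the threshold. With 1 probe set per gene symbol 1009 of 17905 genes were higher and 1190 lower, by construction fewer tests. At D1 a constant of 1 gave 2092 probe sets higher and 2342 lower, and a constant of 64 gave 1108 and 1412. The main counts were 1649 and 1940, so they also depend on the constant, though by less than 1.5 times. With a constant of 64 the call was kept for 165 of 190 called probe sets of the named gene table. For the interaction a constant of 1 gave 1012 probe sets higher and 1224 lower. With a constant of 64 the interaction was called higher for 469 and lower for 568 probe sets, and the cause was not tested. Leaving out each array gave 1561 to 1777 probe sets higher and 1855 to 2045 lower at D1, 657 to 829 higher and 852 to 966 lower for the interaction, and 185 to 188 of 190 called probe sets of the named gene table. Rank products at p under 0.01 with a fold over 2 called 1651 higher and 1940 lower. Same-numbered arrays of D1 and D0 did not deviate together (correlation of the replicate differences -0.0069 in IRAT109 and 0.0422 in ZS97). Whether the replicate numbers pair the arrays by plant or day cannot be told from these values. With the replicate number as a block 1649 probe sets were higher and 1941 lower at D1, 722 and 911 for the interaction, and all 190 named calls held.

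Of 2571 values of the 198 probe sets named in the text over these alternatives, 2528 kept direction and call. The 10 that changed direction belonged to probe sets near 0 that were not called, on leaving out 1 array: CPS2 ranged from -0.15 to 0.19, CYP71Z6 from -0.061 to 0.12, RAB16D from -0.0689 to 0.0675, IAA3 from -0.047 to 0.081, NIA1 from -0.025 to 0.23 and a Dhn1 probe set from -0.087 to 0.0056. The 21 lost calls were, with a constant of 64 those of ACO1, CHLI, CYCD5-3, EXPA6, GBSS-I, HOX33, KRP5, KSL4, KSL7, P5CS1 and PRR37 (GBSS-I at -0.945 and KSL4 at -0.835, both under 16 at D1), with median centring P5CS1, with quantile normalization KSL7, and on leaving out 1 array ACO1, CYCD5-3, KSL7, P5CS1, PRR37 and PRR73. CESA3, KRP4, PBZ1, RAB25, SAPK3 and a PHT1;8 probe set passed the threshold under 1 or more settings. The constant sets the size of changes from a dim signal: AT5 stood at -6.42 with a constant of 1 and -4.18 with 64, and RAB21 at 8.33 and 7.30. No setting was tried that changes how the probes of a probe set were summarized.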

Other observations

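Calls among calcium sensors, their kinases and wall genes stood near the shares of all probe sets with a gene name, 6.54% upregulated and 8.43% downregulated. Of 93 probe sets for calcium sensors and their kinases 6 were upregulated and 9 downregulated. The upregulated ones named here were CIPK genes, kinases that calcium sensors of the CBL type switch on. CIPK16 had intensities of 914 and 812 at D1, against 73.4 and 82.9 at D0 (3.22 ± 0.0859), and CIPK14, CIPK6 and CIPK3 rose by 2.79, 2.56 and 1.88. The calmodulin-like genes CML5 and CML27 changed by -2.92 and -1.90, both called, and CML1 was not called (-0.40). Of 71 probe sets for expansins and wall synthesis 6 were upregulated and 4 downregulated. EXPA6 and the expansin-like EXLA1, of families that loosen walls, rose by 1.32 and 1.39, while EXPB3 had 18.6 and 18.6 at D1, against 129 and 171 at D0 and fell by 2.25 ± 0.0899. CESA4, a cellulose synthase of secondary walls, rose by 1.28 ± 0.0793, and CESA3, of primary walls, stood at -0.98 and was not called.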
